A study of Mus musculus with 2 samples.

Results

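The cytosolic ribosomal protein genes are the rows of both count tables whose symbol begins with Rpl or Rps and a number, together with Rplp0, Rplp1, Rplp2 and Rpsa. Symbols carrying -ps and the S6 kinase genes were left out. The rule takes 87 of the 15863 symbols that both tables hold. Of these, 77 are core subunits of the cytosolic ribosome, 46 of the large and 31 of the small subunit, and 10 are paralogs, copies or other symbols. Fau and Gnb2l1 (Rack1) also encode ribosomal proteins but fall outside the rule, and Rpl39l stands in 1 table only.

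The data are Drop-seq counts, in which each captured mRNA is tagged with a cell barcode and a unique molecular identifier (UMI) at its poly(A) end. Small intestinal crypts and fibroblasts of C57BL6 mice aged 10 weeks were grown together in Organoid Growth Media. Ptger4-ON co-cultures received the vehicle DMSO and grew as spheroids. Ptger4-OFF co-cultures received ONO-AE3-208, an inhibitor of the prostaglandin E2 receptor EP4 that Ptger4 encodes, at 10 µM every second day, and grew as budding organoids. Each condition is 1 library made from a pool of 6 co-cultures, so there is no replicate of either condition and no test between them. All intervals below are exact 95% intervals of counting error only.

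A ribosome joins a small subunit, which reads the mRNA, with a large subunit, which links amino acids. Its proteins are needed in near-equal amounts, and vertebrates usually make each from a single active gene that is accompanied by many processed pseudogenes. Their mRNAs are among the most abundant of a dividing cell and typically begin with a C followed by pyrimidines, the 5′ terminal oligopyrimidine (TOP) tract, through which growth signals control their translation. In the gut, crypt progenitors are rich in ribosomes, and the mature absorptive cell devotes its mRNA to digestion and transport.

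The library of Ptger4-ON held 908 barcodes and 7408303 UMIs, of which 876 cells were kept, and that of Ptger4-OFF held 1599 barcodes and 9490205 UMIs, of which 1560 were kept. The cells were clustered without the ribosomal protein genes, so the members did not define the groups in which they are described. Epithelial-like cells numbered 588 and 1201, and fibroblast-like cells 288 and 359. The sum of 10 epithelial markers was 16380 and 13589 UMIs scaled to 1000000 in the class (CPM) in epithelial-like cells of ON and OFF, against 190.7 and 266.5 CPM in fibroblast-like cells. The sum of 12 fibroblast markers was 35240 and 34295 CPM in fibroblast-like cells, against 101.0 and 107.8 CPM in epithelial-like cells, where Thy1 was at 0 in ON. Barcodes above 50000 UMIs made up 16 cells and 17.3% of the UMIs in ON, against 6 cells and 4.0% in OFF, and all of them were epithelial-like. The libraries shared 1 barcode, which was not kept in both.

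Start-site windows are shown for members at both ends of the range of OFF/ON ratios given below and for the pair Rps27 and Rps27l, since the TOP tract is the sequence feature this gene family is known for. RefSeq start sites (GRCm38.p6) were available for 64 of the 87 members, as 76 entries. A C at the start site followed by 4 bases that are each C or T, on the transcribed strand, stood in 13 of these entries (17.1%), one in each of 13 genes, against 2.51% of all 32851 entries. Within 10 bases either side of the start the motif stood in 52.6% of the members' entries, against 30.7% of all. Each window runs 5′ to 3′ over 15 bases before the start and 15 from it, and capitals mark the unbroken run of C and T that begins at the start site where the motif was found.
Rpl38, chr11:114668565-114668594, plus strand: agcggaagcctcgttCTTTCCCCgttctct
Rpl35a, chr16:33056467-33056496, plus strand: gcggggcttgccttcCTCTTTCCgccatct
Rps27, chr3:90213634-90213663, minus strand: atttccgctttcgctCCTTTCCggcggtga
Rps27l, chr9:66946071-66946100, plus strand: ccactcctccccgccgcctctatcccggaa
Rps28, chr17:33824548-33824577, minus strand: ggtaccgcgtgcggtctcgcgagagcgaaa
Rpl41, chr10:128549154-128549183, minus strand: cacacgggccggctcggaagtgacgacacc
Rpl27a, chr7:109519180-109519209, plus strand: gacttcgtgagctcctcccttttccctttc
Rps3, chr7:99483695-99483724, minus strand: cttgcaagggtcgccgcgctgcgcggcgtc
Rpl38 and Rpl35a are among the members with the lowest OFF/ON ratios and carry the motif at an annotated start. So are Rps28 and Rpl41, whose annotated starts do not have these letters. Rpl27a and Rps3 had ratios above 1, and the motif was not found at their annotated starts. In the Rpl27a window, however, a C stands 1 base before the annotated start, and all 15 bases from the start are C or T. The motif thus stands within 10 bases of that start. Rpl35a and Rps27l have further annotated starts without it. The 13 members with the motif had a median log2(OFF/ON) of -0.31 in epithelial-like cells, with a range of -1.32 to 0.01. The 49 other members in the table that could be measured had a median of -0.23 with a range of -0.82 to 0.23, so both sets overlapped. In fibroblast-like cells the medians were -0.34 (-2.09 to 0.32) with the motif and -0.22 (-0.98 to 0.20) without it, again overlapping. The sets also differed in level, with medians of 1057 and 568 CPM in epithelial-like cells of ON. A match is a description of these letters only.

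Ribosomal protein genes took a larger share of all UMIs in the fibroblast-like than in the epithelial-like class. Some crypt-type epithelial clusters were nonetheless at or above the fibroblast-like share. The share was smallest in enterocyte-like and fetal-like cells. In epithelial-like cells the share of UMIs was 9.59% (9.56 to 9.61) in ON and 9.01% (8.99 to 9.03) in OFF. In fibroblast-like cells it was 11.3% (11.2 to 11.3) in ON and 10.3% (10.2 to 10.3) in OFF. Both classes were thus lower in OFF, by 0.571 percentage points in epithelial-like and 0.985 points in fibroblast-like cells. With every cell given equal weight the epithelial-like difference was -0.153 points and the fibroblast-like one -0.852. With the epithelial states held at the mix of ON or of OFF, the epithelial-like difference was -1.15 or -1.03 points.

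Among crypt-type cells the share was highest in the cluster named for Nrn1, one of its 10 leading genes, with 11.8% in ON (35 cells) and 10.4% in OFF (168 cells). The cluster led by the DNA repair gene Ung and the stem cell gene Olfm4 had 11.5% (132 cells) and 10.3% (396 cells). Its 10 leading genes also include the DNA replication genes Cdt1 and Cdc6 and the cyclin gene Ccne2, so its name does not mark it as non-cycling. Cycling-like cells, defined by mitosis genes, had 10.6% (155 cells) and 9.35% (373 cells). The shares of these clusters were lower in OFF by 1.40 points (Nrn1), 1.26 points (Ung and Olfm4) and 1.21 points (cycling-like).

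Paneth and goblet-like cells, the secretory cells of the crypt, had 10.0% in ON (69 cells) and 9.83% in OFF (66 cells). The direction of this small difference was not stable. Without barcodes above 50000 UMIs, 1 in each library, the shares were 9.84% (9.76 to 9.93) and 9.87% (9.77 to 9.96). The mean over cells was 9.06% in ON and 8.83% in OFF, and the median 9.09% and 9.21%. Fetal-like cells, whose 11 markers of the fetal and regenerating epithelium summed to 11355 CPM in ON and 10524 CPM in OFF, against at most 1592 and 1498 CPM in any other cluster, had 7.95% (176 cells) and 6.39% (76 cells). In both libraries the fetal-like share lay below that of every crypt-type state. Enteroendocrine-like cells, which make gut hormones, had 8.37% in OFF (17 cells), and ON held 1 such cell, at 12.1%. The fibroblast-like cluster with Spp1 and Mgp as its leading genes had 11.5% (235 cells) and 10.4% (307 cells), and that with Pla2g7 and Il11 among its 10 leading genes had 10.5% (53 cells) and 9.49% (52 cells).

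Enterocyte-like cells had the lowest share in each library, 4.78% (4.69 to 4.87) in ON and 5.61% (5.56 to 5.67) in OFF, and were the one state with a higher summed share in OFF. The direction of this difference turned when 1 barcode per library was left out. ON held only 20 enterocyte-like cells against 105 in OFF, and a single barcode of 92081 UMIs made up 45.0% of their UMIs, with a ribosomal protein share of 3.68%. Without barcodes above 50000 UMIs the shares were 5.68% (5.54 to 5.81) and 5.58% (5.52 to 5.63), and the difference was -0.101 points. The mean over cells was 5.91% in ON and 5.11% in OFF, again lower in OFF.

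**Figure D1:**
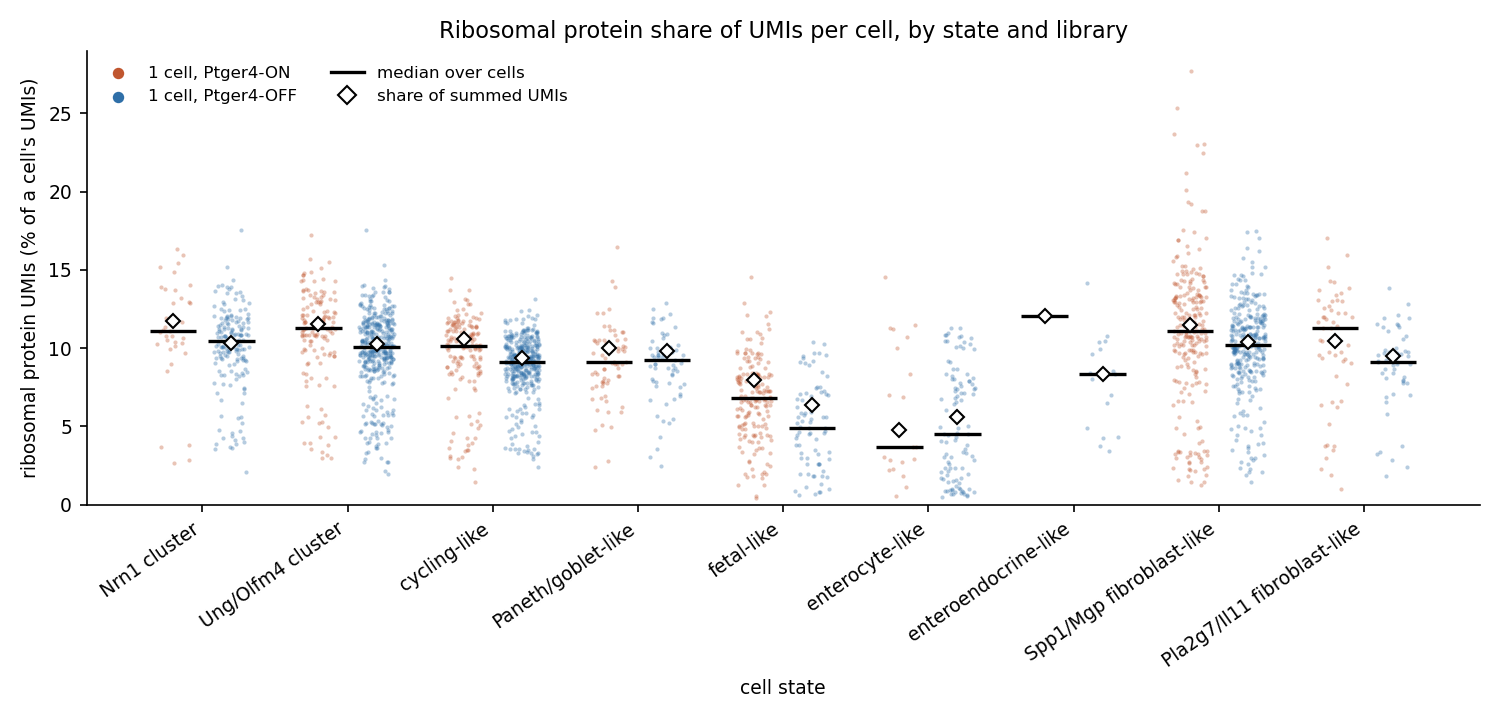
Share of each cell's UMIs that came from ribosomal protein genes (vertical axis, percent), by cell state and library. Points are cells, bars are medians over cells and diamonds are the share of the summed UMIs. Enterocyte-like cells reach down to 0.552% in ON and 0.456% in OFF, and the medians of the Nrn1, Ung and Olfm4, and cycling-like clusters lie between 9.11% and 11.3%.

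Cells of one class differed far more than counting error, and the epithelial-like class mixes states with different shares. The SD of the share over cells was 3.30 points in epithelial-like cells of ON and 2.96 in OFF, where counting alone would give 0.571 and 0.527. In fibroblast-like cells it was 4.56 and 2.92 points, against 0.622 and 0.545. Within single states the SD was also above counting error. It was 2.75 and 1.96 points in cycling-like cells of ON and OFF, against 0.548 and 0.462. Fetal-like cells had 2.59 and 2.74 points, against 0.537 and 0.421. Among epithelial states the quartiles were farthest apart in enterocyte-like cells, where they lay at 2.62% and 10.2% in ON and at 1.69% and 7.92% in OFF. Cells with under 3% ribosomal protein UMIs, a limit chosen after the values were seen, made up 8 of 20 enterocyte-like cells in ON and 38 of 105 in OFF. Among fetal-like cells they were 16 of 176 in ON and 22 of 76 in OFF, and among cycling-like cells 5 of 155 and 2 of 373.

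Depth and mitochondrial share moved with a low share in part. The 38 low enterocyte-like cells of OFF had a median of 3264 UMIs, against 5437 in the other cells of that state, and a median mitochondrial share of 2.97% against 3.63%. The 8 low enterocyte-like cells of ON did not show this, with a median of 5546.5 UMIs against 5506 and a mitochondrial share of 2.49% against 2.45%. In fibroblast-like cells the 21 low cells of ON had a mitochondrial share of 3.74% against 1.14%, and the 14 of OFF 3.58% against 1.34%. Their median UMIs were 1408 against 5060 in ON and 1211.5 against 4652 in OFF. Low cycling-like cells, 5 in ON and 2 in OFF, had mitochondrial shares of 9.01% against 2.62% and 10.6% against 3.13%. Low Paneth and goblet-like cells, 2 and 1, went the other way, at 0.603% against 1.98% and 0.611% against 2.14%. Across cells, the share and the UMI total had a Spearman rho of 0.32 and 0.18 in epithelial-like and of 0.17 and 0.19 in fibroblast-like cells of ON and OFF. These values share each cell's total, and the part of depth or cell quality in the low shares was not tested.

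Between libraries, most members were lower in OFF by a small fold, in the epithelium and in fibroblasts alike. Ratios are OFF over ON of CPM, and log2 ratios carry a pseudocount of 0.5 UMIs. In epithelial-like cells 85 members had at least 20 UMIs, their median log2(OFF/ON) was -0.24, 41 were lower past 1.2-fold and 2 were higher. Of all 11613 genes measured there, 26.5% were lower past 1.2-fold and 18.8% higher, and of the 2334 genes with at least 100 CPM, 17.1% and 16.9%. In fibroblast-like cells 84 members were measured, their median was -0.24, 39 were lower past 1.2-fold and 3 were higher. Of all 9757 genes there, 22.4% were lower and 21.9% higher, and of those with at least 100 CPM, 13.0% and 14.8%. The median over all genes was -0.04 and 0.01. Both classes come from the same pair of libraries, so they are not independent replicates of the pattern.

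Among members of at least 100 CPM the lowest ratio in both classes belonged to Rpl38, a small large-subunit protein whose loss in mice alters the translation of Hox mRNAs (chr11:114668524-114672331, GRCm38). Rpl38 was at 348 CPM in ON and 139.5 CPM in OFF in epithelial-like cells, a ratio of 0.401 (0.372 to 0.433), and at 397 and 176 CPM in fibroblast-like cells, a ratio of 0.444 (0.388 to 0.508). It was lower in OFF in all 9 states, and in the 7 that held at least 20 cells per library, other than enterocyte-like cells, its ratio ran from 0.340 in the Nrn1 cluster to 0.491 in Paneth and goblet-like cells. In enterocyte-like cells it was 0.568 (0.375 to 0.876). Rps29, a zinc-binding small-subunit protein of under 100 CPM, had 263 and 202 UMIs in epithelial-like cells and 61 and 26 in fibroblast-like cells, with ratios of 0.559 (0.463 to 0.674) and 0.407 (0.247 to 0.654). It was chosen after its values were seen.

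Rps28, a small-subunit protein at the mRNA exit site (chr17:33819027-33824562), fell from 283 to 165 CPM in epithelial-like cells, a ratio of 0.583 (0.541 to 0.628). In fibroblast-like cells Rps28 was at 444.5 CPM in ON and 225 in OFF, a ratio of 0.505 (0.447 to 0.570). Rpl41, the shortest protein of the ribosome (chr10:128548114-128549305), was at 2224 and 1343 CPM in epithelial-like cells and at 2570 and 1553 CPM in fibroblast-like cells, a ratio of 0.604 in both. Rpl36 (chr17:56613416-56614243) had ratios of 0.647 (0.607 to 0.691) and 0.574 (0.502 to 0.655). For each of these genes OFF was lower in both classes, beyond counting error. Rps23, Rpl35a and Rpl37a were also among the 8 lowest in epithelial-like cells, at 0.685 to 0.691, and Rpl10a, Rpl35a, Rpl37a and Rpl37 in fibroblast-like cells, at 0.614 to 0.694.

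A smaller group was higher in OFF. Rpl8, a large-subunit protein near the peptidyl transferase centre (chr15:76904078-76906314), was at 3029 CPM in ON and 3798 in OFF in epithelial-like cells, a ratio of 1.25 (1.23 to 1.28). In fibroblast-like cells Rpl8 was at 2508 and 3097 CPM, a ratio of 1.23 (1.19 to 1.28). Rpl27a, Rps3 and Rpl4 were also above 1 in both classes, at 1.17, 1.14 and 1.10 in epithelial-like and at 1.12, 1.08 and 1.09 in fibroblast-like cells, and the fibroblast-like interval of Rpl27a reached below 1 (0.976 to 1.28). Rpl8 was higher in OFF in each state other than enteroendocrine-like cells, where ON held 1 cell, although in fetal-like cells its interval included 1 (1.03, 0.975 to 1.08).

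**Figure D2:**
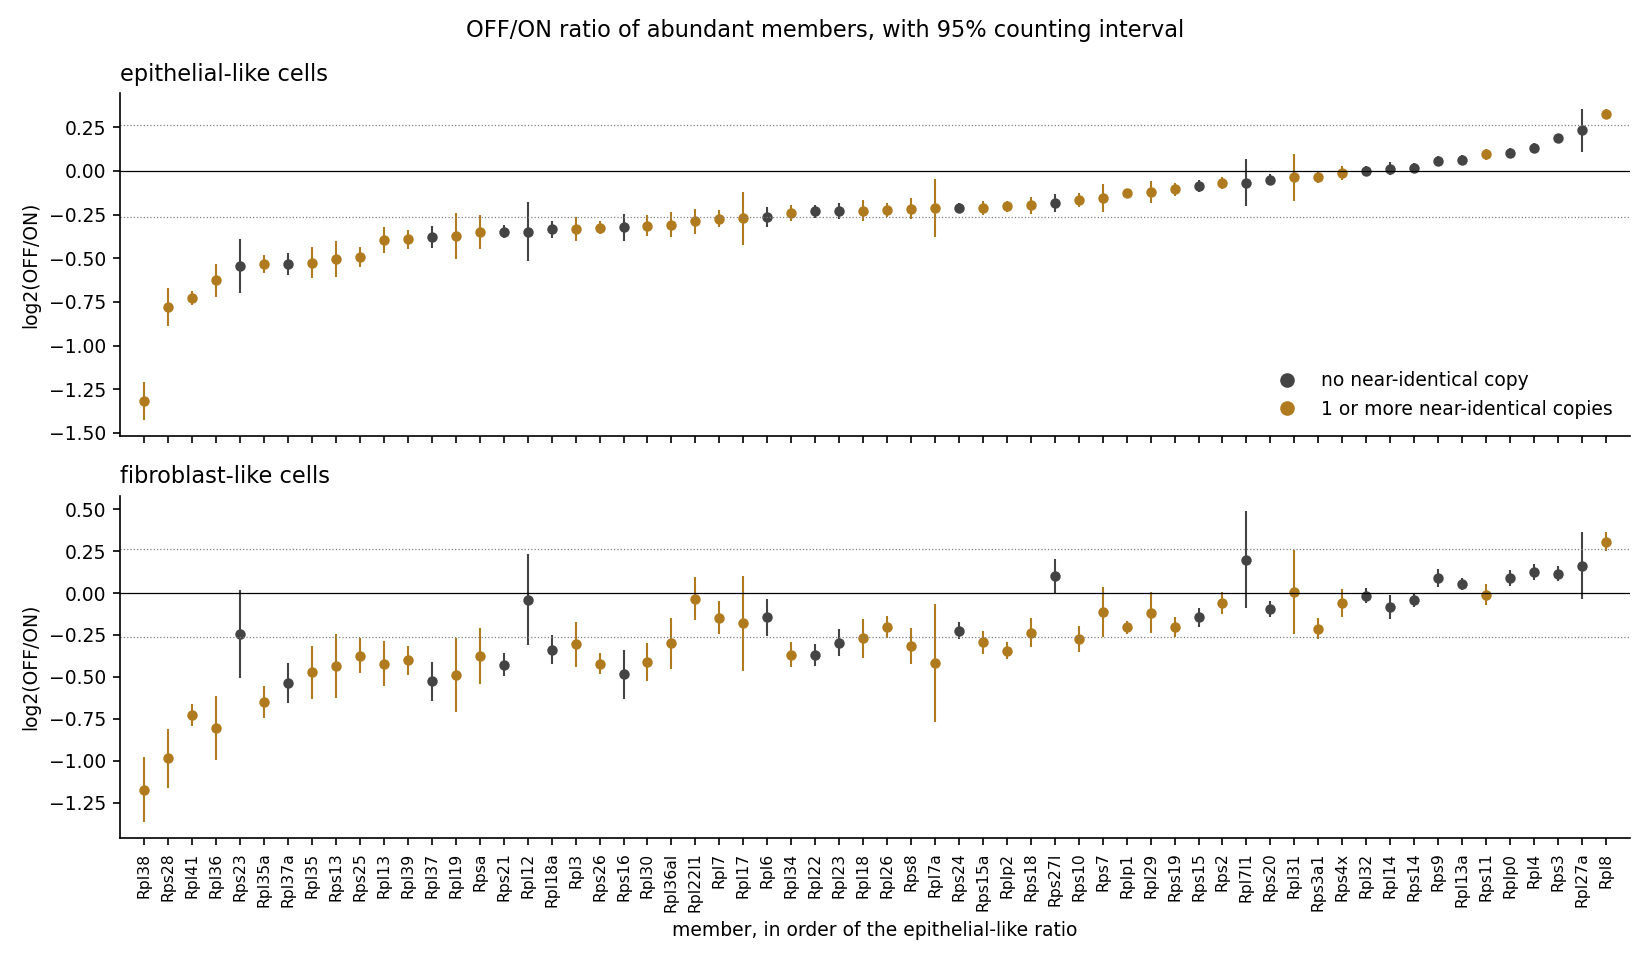
Log2(OFF/ON) of members with at least 100 CPM in epithelial-like cells, in epithelial-like (top) and fibroblast-like cells (bottom), with 95% counting intervals; dotted lines mark 1.2-fold. Rpl38 is lowest and Rpl8 highest in the epithelial-like panel, and Rpl38, Rps28, Rpl41 and Rpl36, the lowest 4, all have near-identical copies.

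The members of the stalk, which recruits elongation factors, did not move as 1 unit. Rplp0 was at 3466 CPM in ON and 3721 in OFF in epithelial-like cells, a ratio of 1.07 (1.05 to 1.09). Rplp1 was at 4888 and 4473 CPM, a ratio of 0.915 (0.901 to 0.930), and Rplp2 at 2648 and 2302 CPM, a ratio of 0.869 (0.850 to 0.888). In fibroblast-like cells the ratios were 1.06, 0.868 and 0.789. Rpsa, which also serves as a laminin receptor, had ratios of 0.784 (0.734 to 0.838) and 0.772 (0.688 to 0.866). Of the proteins that hold the 5S RNA and can bind Mdm2, Rpl5 had a ratio of 1.10 (0.934 to 1.29) and Rpl11 of 0.901 (0.800 to 1.01) in epithelial-like cells, and both intervals include 1. In fibroblast-like cells Rpl5 was at 0.942 (0.667 to 1.33) and Rpl11 at 0.750 (0.581 to 0.966).

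Rps6, the substrate of the S6 kinases, had only 58 and 45 UMIs in epithelial-like cells, 10.5 and 5.92 CPM, and 30 and 7 UMIs in fibroblast-like cells. Its ratios of 0.565 (0.374 to 0.848) and 0.223 (0.083 to 0.518) therefore rest on few UMIs. Rps27 was likewise at 6.69 and 5.39 CPM in epithelial-like cells, and its ratio of 0.806 had an interval of 0.504 to 1.29. The levels of core members spanned 5.39 to 4977 CPM in epithelial-like cells of OFF, although the ribosome holds its proteins in near-equal amounts. UMIs are counted at the 3′ end and were not scaled by transcript length.

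The low ratios in OFF were more frequent among members whose 3′ end has a near-identical match in another annotated gene. A copy was counted where the last 300 bases of a member's transcript matched a transcript of another gene in GENCODE vM21 at 98% identity or more over at least 100 bases. The position of the other gene was not checked, so an annotated gene that overlaps the member would also count. For Rpl41, Rplp1 and Rplp2 the 1 copy was not annotated as a pseudogene. The 25 core subunits with 0 copies had a median log2(OFF/ON) of -0.09 in epithelial-like cells, and 8 of 25 were lower past 1.2-fold, where 26.5% of all genes and 17.1% of those with at least 100 CPM were lower. The 52 core subunits with at least 1 copy had a median of -0.31, and 29 of 52 were lower past 1.2-fold. In fibroblast-like cells the medians were -0.10 and -0.31, with 8 of 25 and 30 of 52 lower past 1.2-fold, where 22.4% of all genes and 13.0% of those with at least 100 CPM were lower.

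The summed share shows the same split. Core subunits with 0 copies took 4.95% of epithelial-like UMIs in ON (4.93 to 4.97) and 4.93% in OFF (4.91 to 4.94), a ratio of 0.996 (0.991 to 1.00). Core subunits with copies took 4.4% in ON and 3.88% in OFF, a ratio of 0.882 (0.877 to 0.887). In fibroblast-like cells the ratios were 0.975 (0.967 to 0.984) with 0 copies and 0.839 (0.831 to 0.847) with copies. Within crypt-type states the copy-free subunits were nonetheless lower in OFF, at 5.41% against 5.09% in cycling-like cells and 5.97% against 5.63% in the Ung and Olfm4 cluster, and in fetal-like cells they were at 4.08% against 3.47%. In Paneth and goblet-like cells they were higher in OFF, at 5.28% in ON against 5.41%, and so they were in enterocyte-like cells, at 2.53% against 3.09%, where 1 barcode holds 45.0% of the UMIs of ON.

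**Figure D3:**
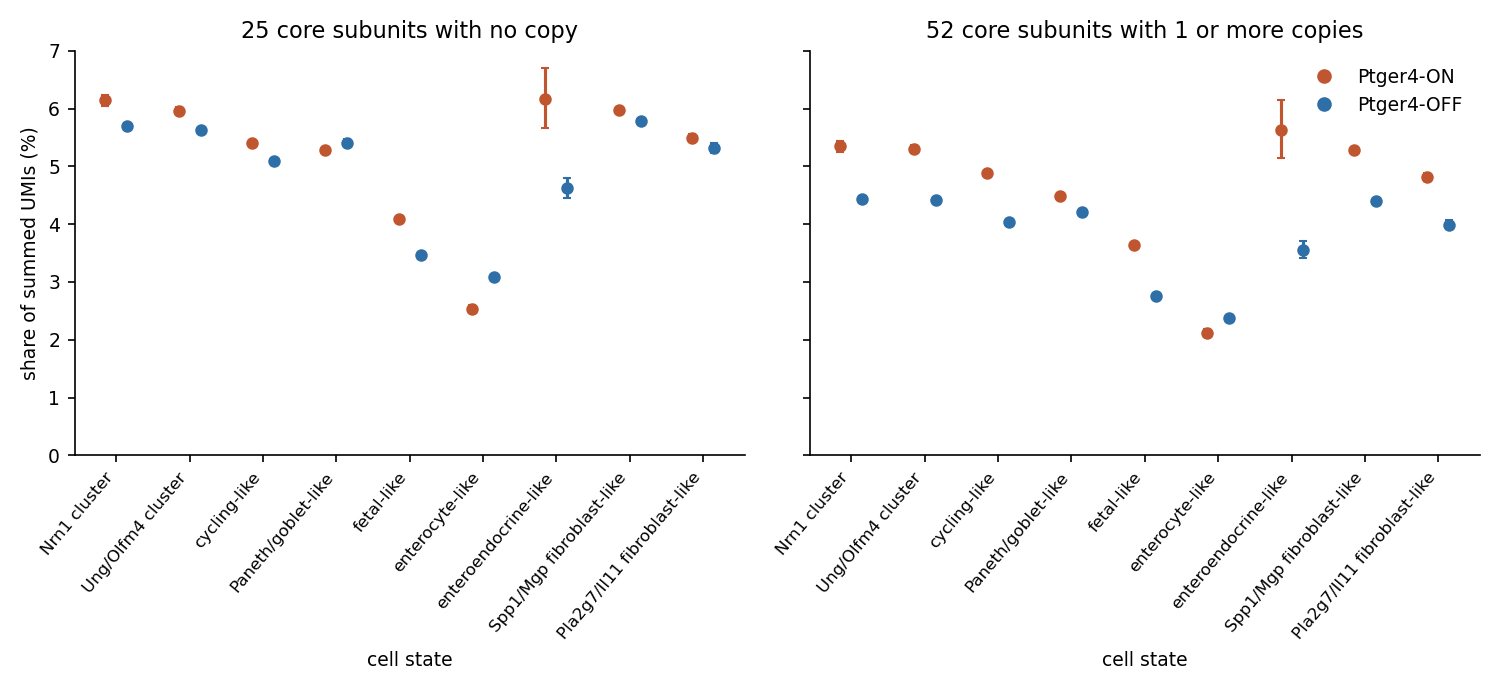
Share of summed UMIs (vertical axis, percent, with 95% counting intervals) of the 25 core subunits without a near-identical copy (left) and the 52 with at least 1 (right), by state and library. In cycling-like cells the gap between libraries is 5.41% against 5.09% on the left and 4.88% against 4.04% on the right.

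Other genes with such copies were also lower in OFF. Among other protein-coding genes of at least 100 CPM in epithelial-like cells, the 84 with a copy had a median log2(OFF/ON) of -0.11 and 31.0% were lower past 1.2-fold, against 0.02 and 15.5% of the 2084 with 0 copies. In fibroblast-like cells the medians were -0.06 for 75 genes and 0.05 for 1836. The level itself also went with the number of copies. In epithelial-like cells of ON the median level was 1931 CPM for core subunits with 0 copies, 799 CPM for those with 1 to 5 and 101 CPM for the 17 with 6 or more, Rps6 among the last. How reads that match several places were counted is not given in the sources used here, and the part of copies in these results was not tested.

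Transcript length moved with the ratio as well. The 6 members whose transcript is at most 400 bases long, Rpl38 and Rps28 among them, had a median log2(OFF/ON) of -0.70 in the epithelial-like class and -0.89 in the fibroblast-like class. Across 82 protein-coding members, the log2 ratio and the length had a Spearman rho of 0.39 in epithelial-like cells and 0.37 in fibroblast-like cells. Across 10437 other protein-coding genes the rho in epithelial-like cells was -0.14, but the 26 of at most 400 bases had a median of -0.26. Members less the median of other genes of their length class had a median of -0.24 and -0.28, and 68 of 82 were below 0 in each class. Length and copies overlap: the core subunits with 0 copies had a median length of 1047 bases, and those with copies 639 bases. Among core subunits longer than 600 and up to 900 bases the median was -0.05 for the 4 with 0 copies and -0.27 for the 22 with copies in epithelial-like cells. In fibroblast-like cells these medians lay closer together, at -0.16 and -0.24. The quartiles of the 4 with 0 copies were -0.44 and 0.14 there. The part of length was not tested.

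**Figure D4:**
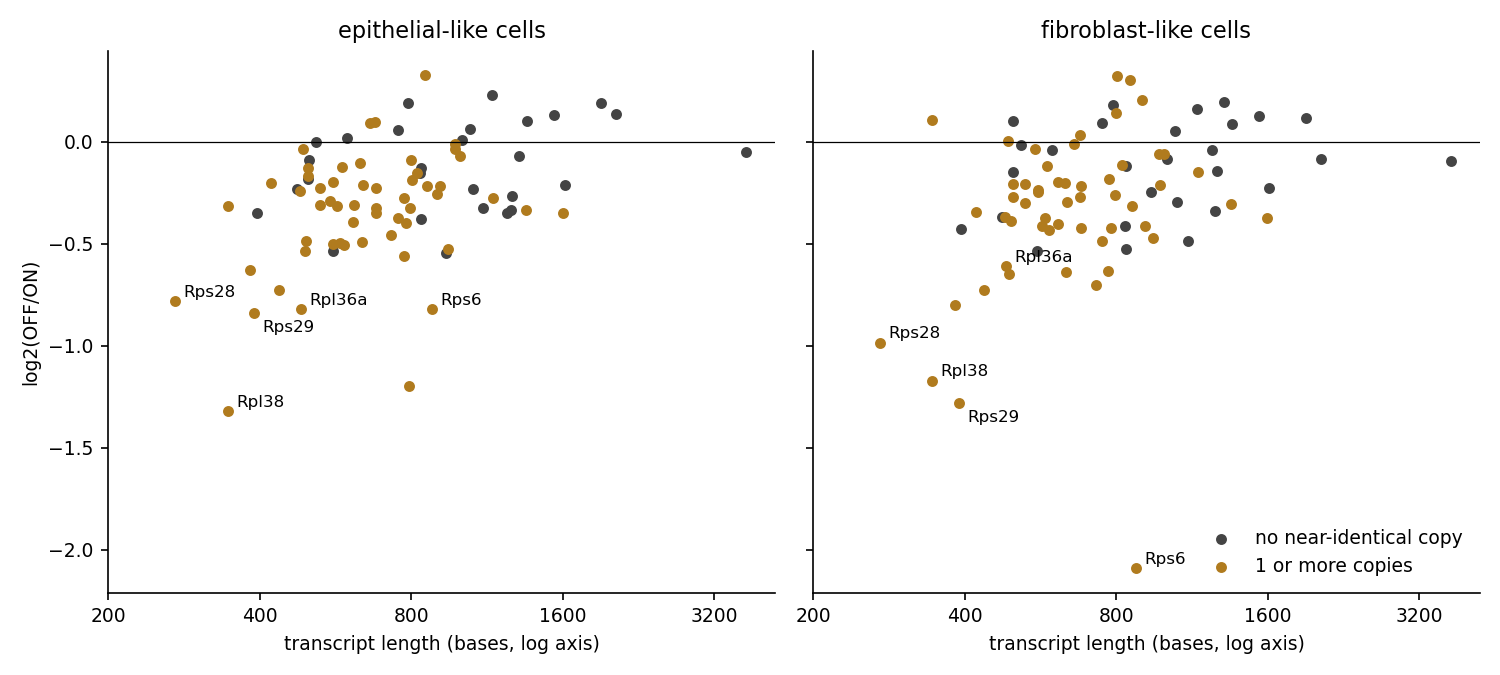
Log2(OFF/ON) of measured members against its transcript length (bases, log axis), in epithelial-like (left) and fibroblast-like cells (right); colour marks members with at least 1 near-identical copy. Rpl38 lies at -1.32 and -1.17, and Rps6, a longer transcript with few UMIs, lies lowest in the fibroblast-like panel.

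Within single states the members' median log2(OFF/ON) was -0.46 in fetal-like cells, where 64 of 82 measured members were lower past 1.2-fold and 0 higher, against 37.3% and 22.9% of all genes there. It was -0.29 in cycling-like cells, with 45 of 84 lower and 2 higher (23.3% and 18.6% of all genes), and -0.30 in the Ung and Olfm4 cluster, with 46 of 82 lower and 2 higher (26.4% and 24.7%). In the Nrn1 cluster it was -0.34, with 48 of 80 lower and 1 higher (32.4% and 28.9%). In enteroendocrine-like cells, with 1 cell in ON, it was -0.66, with 39 of 50 lower and 1 higher (43.2% and 34.4%). In the Spp1 and Mgp fibroblast-like cluster it was -0.26, with 42 of 84 lower and 3 higher (21.9% and 23.4%), and in the Pla2g7 and Il11 cluster -0.27, with 40 of 79 lower and 9 higher (29.2% and 29.8%). In Paneth and goblet-like cells it was -0.14, with 26 of 80 lower and 8 higher (25.1% and 30.5%). In enterocyte-like cells the median was 0.14 with 22 of 74 higher and 8 lower past 1.2-fold, against 35.1% and 32.9% of all genes. Without barcodes above 50000 UMIs it was -0.17, with 10 of 71 higher and 21 lower, so the direction of the members there turned when these barcodes, 1 in each library, were left out.

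As a class, fibroblast-like cells carried more ribosomal protein mRNA per UMI than epithelial-like cells in each library. This did not hold against every epithelial state. The fibroblast-like share was 11.3% in ON and 10.3% in OFF. The Nrn1 cluster had 11.8% and 10.4%, and the Ung and Olfm4 cluster 11.5% and 10.3%. The median log2(fibroblast/epithelial) of the members was 0.14 in ON and 0.13 in OFF, against -0.24 and -0.21 over all genes. In ON 25 of 85 members were higher and 8 lower past 1.2-fold, where 31.9% of all genes were higher and 49.2% lower. In OFF 26 of 84 were higher and 10 lower, where 33.4% were higher and 48.2% lower. Among genes of at least 100 CPM the shares were 32.4% and 50.2% in ON and 33.8% and 48.2% in OFF. The count of higher members was thus near the background, and that of lower members was below it.

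Rpl13a, a large-subunit protein that also takes part in an inhibitor complex of inflammatory mRNAs, ranked first by the lower of its ratios in the libraries. It was at 4410 CPM in epithelial-like and 6681 CPM in fibroblast-like cells of ON, a ratio of 1.51 (1.48 to 1.55), and the ratio was 1.5 (1.47 to 1.53) in OFF. Rplp1 had ratios of 1.48 and 1.41, Rps15a of 1.47 and 1.39, Rps20 of 1.43 and 1.38 and Rps28 of 1.57 and 1.36. Rpl8 was lower in fibroblast-like cells, at 0.828 (0.801 to 0.856) in ON and 0.816 (0.793 to 0.839) in OFF. Rpl36al was at 0.807 (0.745 to 0.874) and 0.813 (0.746 to 0.884). Rpl7l1, a nucleolar relative of Rpl7, was at 0.720 (0.611 to 0.846) and 0.866 (0.746 to 1.00).

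**Figure D5:**
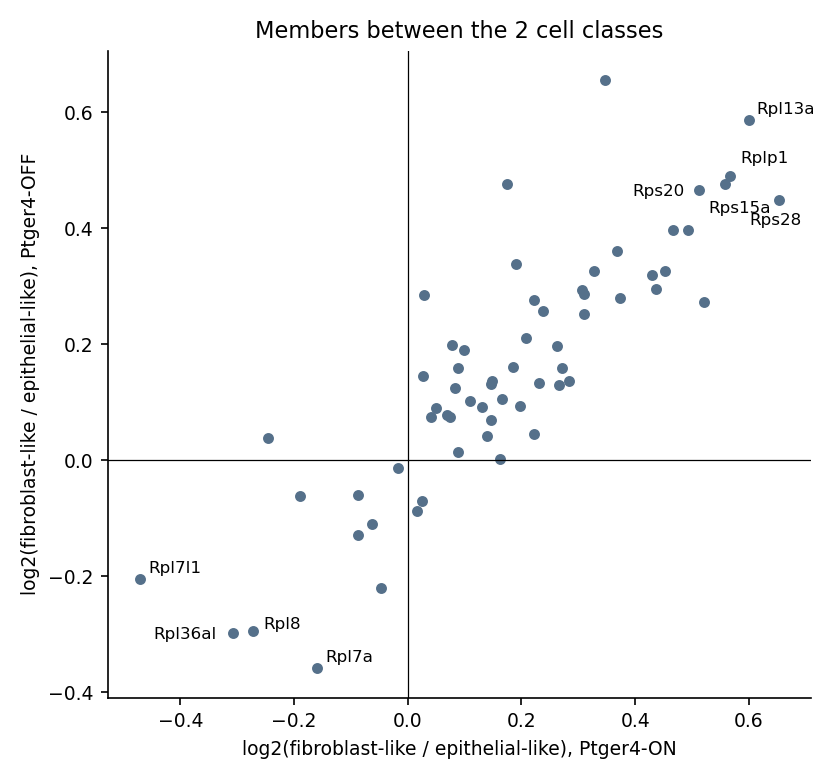
Log2 ratio of fibroblast-like over epithelial-like CPM for members with at least 100 CPM, in Ptger4-ON (horizontal) and Ptger4-OFF (vertical). Most members lie above 0 in both libraries, with Rpl13a at ratios of 1.51 and 1.5, and Rpl8 lies below 0 in both.

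The paralogs were at other levels than their partners. Rps27l, which p53 induces, was far above Rps27, at 983 CPM against 6.69 CPM in epithelial-like cells of ON; Rps27 has 2 near-identical copies and Rps27l has 0. As a share of all ribosomal protein UMIs, Rps27l was 1.19% (1.14 to 1.25) in fetal-like cells of ON and 1.27% (1.17 to 1.38) of OFF, above cycling-like cells at 0.964% (0.922 to 1.01) and 0.917% (0.883 to 0.952). The Spp1 and Mgp fibroblast-like cluster had 0.730% and 0.867%. Enterocyte-like cells had 1.30% (1.08 to 1.54) in ON and 1.30% (1.19 to 1.41) in OFF. Without barcodes above 50000 UMIs the fetal-like values were 1.16% and 1.27% and the enterocyte-like ones 0.985% (0.758 to 1.26) and 1.28%, so the enterocyte-like value of ON then overlapped that of cycling-like cells.

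Rpl22l1, the paralog that can stand in for Rpl22, was at 568 and 465 CPM in epithelial-like cells, and Rpl22 was at 1931 and 1644 CPM. Their ratios were 0.818 (0.780 to 0.859) and 0.851 (0.829 to 0.874). In fibroblast-like cells Rpl22l1 was at 0.977 (0.895 to 1.07) while Rpl22 was at 0.774 (0.739 to 0.810). Rpl36al was at 542 CPM in epithelial-like cells of ON against 85.8 CPM for Rpl36a, with OFF/ON ratios of 0.807 (0.768 to 0.848) and 0.567 (0.493 to 0.651). Rpl36al has 2 near-identical copies, Rpl36a has 3 and Rpl10 has 8, and the part of copies in these levels was not tested. Rpl7 was at 1139 CPM against 146 CPM for Rpl7l1, and Rps4x was at 1394 CPM against 53.5 CPM for Rps4y2, which RefSeq lists as Rps4l, a transcribed pseudogene. Rpl3l had 4 UMIs and Rpl10l 8 in epithelial-like cells of both libraries together, too few for a ratio, while Rpl3 had 3403 and 3711 UMIs and Rpl10 190 and 246.

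Of the genes that serve the ribosome, mitochondrial ribosomal proteins had medians above 0 between libraries, where the cytosolic ones had medians below 0. Their median log2(OFF/ON) was 0.14 in epithelial-like cells, with 62 of 75 above 0, and 0.18 in fibroblast-like cells, with 58 of 75 above 0. Over all genes measured, 5308 of 11613 and 5080 of 9757 were above 0. In epithelial-like cells 12 of the 75 mitochondrial ribosomal protein genes were higher and 3 lower past 1.2-fold, against 18.8% and 26.5% of all genes. The higher count was thus not above the background. In fibroblast-like cells 24 were higher and 6 lower, against 21.9% and 22.4% of all genes. Mrps22 had the highest ratio in epithelial-like cells, 1.38 (1.24 to 1.54), and Mrps33 the lowest, 0.715 (0.611 to 0.835). Ribosome biogenesis genes, which make and fold ribosomal RNA in the nucleolus, had medians of -0.08 and -0.04, with 6 of 46 and 7 of 46 lower past 1.2-fold, against 26.5% and 22.4% of all genes. Elongation factors had medians of -0.09 and -0.10, and initiation factors with poly(A) binding genes of -0.05 and 0.01. Fau, a ribosomal protein made as a fusion to a ubiquitin-like sequence, had a ratio of 0.589 (0.521 to 0.665) in epithelial-like cells. Gnb2l1, the scaffold protein RACK1 of the small subunit, was at 1.16 (1.14 to 1.19).

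Between cell classes, 42 of 46 ribosome biogenesis genes were lower in fibroblast-like cells in ON, with a median log2(fibroblast/epithelial) of -0.58, and the median was -0.60 in OFF. Mitochondrial ribosomal proteins had medians of -0.65 and -0.62, with 69 and 70 of 75 below 0. Lower in fibroblast-like cells was also the more frequent direction over all genes measured. There 6805 of 11526 genes in ON and 6783 of 11778 in OFF were below 0, with medians of -0.24 and -0.21. Elongation factors had medians of 0.13 and 0.19, against 0.14 and 0.13 for the ribosomal protein genes. Cycling markers summed to 3301 and 3137 CPM in epithelial-like and 483 and 445 CPM in fibroblast-like cells of ON and OFF, and their part in these differences was not tested.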

How the data were processed

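Drop-seq libraries of Ptger4-ON and Ptger4-OFF co-cultures were analysed from the 2 deposited tables of UMI counts per gene and barcode. The authors' tools, per the submitters' processing notes, include STAR 2.6 and the build mm10. The counting of reads that match several places is not given in the sources used here.

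Barcodes under 300 genes or above 20% mitochondrial UMIs were dropped, as were 6 (ON) and 4 (OFF) doublets that Scrublet called within scanpy 1.11.5. Cells were clustered (2000 variable genes without ribosomal protein genes, 30 components, 15 neighbours, Leiden resolution 0.5) and named from marker lists. Counts were summed per class or state. Shares have exact Clopper-Pearson intervals, and OFF/ON ratios have exact conditional binomial intervals, at 95%, covering counting error only. Ratios need 20 UMIs over both libraries, and "past" means 1.2-fold. Cells are not replicates, so with 1 library per condition no test was made.

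Positions, lengths and copies come from GENCODE vM21 (GRCm38, the assembly of mm10), with copies found by blastn 2.17.0, and start sites from RefSeq (GRCm38.p6). Named members were, per class, the 8 largest and 8 smallest OFF/ON ratios of at least 100 CPM and the 3 most abundant; the 5 extremes on each side between classes; and stalk, 5S particle, Rpsa, Rps6 and paralog genes. Of each other list the rule takes the extremes, of which a few are printed. Some genes that the rule names are not reported here one by one or plotted, and they are kept in all counts and medians. Members and lists were chosen with earlier results of these data known. The copy analysis, the limit of 3% and the length correction were added after seeing the data. The code for ratios and intervals was run on simulated counts that varied by counting error only. They held no variation between cells or libraries, so this run says nothing on such variation. Alternatives included other filters, scalings (edgeR 4.0.16 TMM, median of ratios), weights and minimums.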

Additional observations from a re-analysis of the deposited data

Results flagged for a closer look

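The enterocyte-like state stands apart from the other states in direction: its summed ribosomal protein share was 0.833 points higher in OFF, while the other 8 states were lower in OFF. With 1 library per condition this difference between states was not tested, and it turned to -0.101 points without barcodes above 50000 UMIs. Without these barcodes the Paneth and goblet-like difference also turned, to 9.84% in ON against 9.87% in OFF. The enteroendocrine-like state held 1 cell in ON.

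Rows with -ps symbols, which the rule leaves out, held UMIs in both libraries, equal to 0.525% of the members' UMIs in ON and 0.425% in OFF.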

How the results depend on the processing

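Each direction below is OFF minus ON or the first group minus the second. No paired analysis was possible because each condition has 1 library, so leaving one out gives no value.

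The epithelial-like difference of -0.571 points stayed negative in every setting run, at -0.508 (10% mitochondrial limit), -0.641 (without barcodes above 50000 UMIs), -0.494 (without cells under 3%, which selects on the share itself), -0.472 (mitochondrial UMIs left out), -0.153 (equal weight per cell), -0.537 (core subunits), -0.278 (thinned to 1000 UMIs), and -1.15 and -1.03 (state mix of ON and of OFF). The fibroblast-like difference of -0.985 was -1.11 without cells under 3%, -0.852 with equal weight and -0.884 thinned. The fetal-like minus cycling-like difference in ON, -2.60 points, was -2.52 (500 genes), -2.43 (10% limit), -2.82 (doublets kept), -2.45 (clusters made with the members), -3.15 (without deep barcodes), -2.31 (without cells under 3%), -2.79 (mitochondrial UMIs left out), -2.71 (equal weight) and -3.09 (thinned). The enterocyte-like minus cycling-like difference in OFF, -3.73, was -3.66 (200 genes), -3.87 (500 genes), -3.91 and -3.94 (10% and no mitochondrial limit), -3.59 (clusters made with the members), -3.82 (without barcodes ending in N), -2.32 (without cells under 3%), -3.85 (mitochondrial UMIs left out) and -3.66 (core subunits).

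The enterocyte-like OFF minus ON difference reversed to -0.101 without deep barcodes, -0.797 with equal weight and -1.08 thinned. It was 1.18 (500 genes), 0.707 and 0.945 (10% and no mitochondrial limit), 1.17 (clusters made with the members), 1.28 (without cells under 3%) and 0.944 (mitochondrial UMIs left out). The Rps27l share in enterocyte-like cells of ON was 0.985% without deep barcodes.

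The members' median log2(OFF/ON) in epithelial-like cells was -0.19 with equal weight, TMM or median-of-ratios factors. Among core subunits without a near-identical copy it was -0.087 there and -0.10 in fibroblast-like cells, and 8 members were lower past 1.2-fold in each class, out of 25 rather than 85 and 84. At 1.5-fold 8 and 11 members were lower. The share of all genes at 1.5-fold is not given here, so these counts have no background beside them. The median between classes in OFF was 0.19 with TMM. Of 1312 gene values under alternatives, for 41 members, 25 crossed 1.2-fold and 1 reversed: Rps27 in epithelial-like cells, which had few UMIs, at 0.22 with equal weight. The cause was not tested, other than fewer genes tested for the copy-free set. Resolution 1 gave class values only. Low UMI counts limit Rps6 and Rps27, and cell number limits the enterocyte-like and enteroendocrine-like states of ON.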
